A study of Mus musculus with 12 samples.

Results

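The proteasome and immunoproteasome subunits were followed through 12 RNA sequencing libraries of sorted mouse splenic dendritic cells (DCs), 3 libraries for each of 4 culture conditions. Members were all protein-coding rows of the deposited count table whose GENCODE mouse symbol began with Psm, a letter from a to g and a digit. This gave 50 of 57009 gene identifiers, of which 49 had enough counts to be tested. The DCs of every group came from C57BL/6 mice bearing B16 cells that secrete Flt3 ligand, which expands DCs in vivo, and were enriched from spleen by removing T, B and natural killer cells and macrophages with beads. In the AlloTem group they were cultured for 3 h with memory T cells of BALB/c origin that were specific for alloantigen. In the SynTem group they were cultured for 3 h with syngeneic memory T cells of the C57BL/6 strain, so the T cells of AlloTem and SynTem differed in strain as well as in what they recognise. The LPS group received lipopolysaccharide, a bacterial cell wall component, for 3 h. The DC only group was cultured alone for 3 h. After culture the DCs were sorted on CD11b and CD11c. Mouse age and sex are not given in the labels used here.

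The proteasome is the barrel-shaped protease that degrades ubiquitin-tagged proteins. Its 20S core has outer alpha rings and inner beta rings, and the beta subunits Psmb5, Psmb6 and Psmb7 carry the peptide-cutting sites. Interferon-gamma is known to raise Psmb8, Psmb9 and Psmb10, which take the places of those sites to form the immunoproteasome, and Psme1 and Psme2, which form the PA28 activator ring. The 19S cap, built from ATPases (Psmc) and non-ATPases (Psmd), binds and unfolds substrates. DCs are known to hold immunoproteasomes before any stimulus, and peptides cut by them are loaded on MHC class I.

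Start-site windows are printed here because the comparison turned on subunits that interferon is known to induce, set against their constitutive counterparts. Windows ran from 250 bases before to 50 bases after the RefSeq start site (GRCm38.p6), and 42 members matched one. Psmb8 (chr17:34197945-34198244, plus strand), Psmb9 (chr17:34187281-34187580, minus strand), Psme1 (chr14:55578244-55578543, plus strand) and Psmb5 (chr14:54617946-54618245, minus strand) are shown 5′ to 3′. Capitals mark an interferon regulatory factor motif (GAAANNGAAA, here on the other strand) in Psme1, and the core of an antioxidant response element (TGACNNNGC) in Psmb5.
Psmb8: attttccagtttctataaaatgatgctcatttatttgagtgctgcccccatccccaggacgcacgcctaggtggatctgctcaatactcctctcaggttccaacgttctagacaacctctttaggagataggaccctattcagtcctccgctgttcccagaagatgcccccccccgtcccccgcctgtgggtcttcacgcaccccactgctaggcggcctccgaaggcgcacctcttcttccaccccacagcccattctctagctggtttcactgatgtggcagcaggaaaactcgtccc
Psmb9: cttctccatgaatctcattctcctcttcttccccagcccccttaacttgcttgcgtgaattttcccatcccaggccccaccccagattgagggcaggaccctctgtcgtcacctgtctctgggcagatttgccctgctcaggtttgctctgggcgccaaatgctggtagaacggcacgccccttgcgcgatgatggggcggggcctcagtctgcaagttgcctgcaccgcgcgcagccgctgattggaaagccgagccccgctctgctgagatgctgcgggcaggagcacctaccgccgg
Psme1: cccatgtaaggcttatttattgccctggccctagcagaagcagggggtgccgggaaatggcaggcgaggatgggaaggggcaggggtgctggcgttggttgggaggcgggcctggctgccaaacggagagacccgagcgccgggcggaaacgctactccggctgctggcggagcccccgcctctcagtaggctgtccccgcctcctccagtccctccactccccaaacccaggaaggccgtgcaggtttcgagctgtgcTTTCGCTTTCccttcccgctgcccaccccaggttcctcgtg
Psmb5: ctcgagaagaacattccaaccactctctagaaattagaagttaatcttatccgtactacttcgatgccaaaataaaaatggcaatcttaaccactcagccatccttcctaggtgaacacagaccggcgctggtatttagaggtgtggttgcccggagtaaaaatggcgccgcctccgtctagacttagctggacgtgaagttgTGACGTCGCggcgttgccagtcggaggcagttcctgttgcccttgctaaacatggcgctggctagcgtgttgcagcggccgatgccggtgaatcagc

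Both motifs were searched on both strands, and in the windows printed no match overlapped another. The interferon regulatory factor motif stood in the windows of 5 of 42 members (Psmb3, Psmd4, Psmd9, Psme1 and Psmg4), against 3.44% of all 32851 windows. The antioxidant core, a site of the Nrf family of factors that is known to drive constitutive subunits, stood in 6 (Psmb5, Psmb6, Psmc6, Psmd12, Psmd9 and Psme4), against 12.4% of all windows. The windows of Psmb8, Psmb9, Psmb10 and Psme2 held none of these letters. Psmb9 lies head to head with Tap1, the peptide transporter of the MHC class I pathway, and 275 of the 300 bases of its window are also in that of Tap1. Members can have several windows, as Psme2 does. A count of members beside a share of windows is therefore no measure of an excess. A match of letters describes a window and is not evidence of a bound site.

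Total counts ran from 13903574 to 21861156 per library. A deposited batch number from 1 to 3 was the same as the replicate number for 12 of 12 libraries, and what a batch stood for was not stated. Whether replicates came from different animals or cultures is not in the labels, so a p-value here measures the spread between these libraries only. In bulk RNA, fewer cells of a type and less RNA per cell cannot be told apart. DC markers were present throughout (Itgax 261 to 470 CPM, Flt3 316 to 461 CPM), where CPM is the count scaled to a common, TMM-adjusted library size. The summed level of 24 T cell markers, none of them at 0 in all libraries, ran from 190 to 365 CPM in AlloTem, 349 to 806 CPM in SynTem, 86.7 to 218 CPM in LPS and 81.5 to 127 CPM in DC only. Summed transcripts of 4 Y-linked genes (Ddx3y, Eif2s3y, Kdm5d and Uty) were 130.9 to 219.6 CPM in 5 libraries (AlloTem 3, SynTem 2, SynTem 3, LPS 3 and DC only 3) and 0 to 10.3 CPM in the 7 others. Xist, the RNA of the inactive X chromosome, stood at 137.6 to 455.1 CPM in the 5 and 610.0 to 1188.1 CPM in the 7, so libraries of 1 group differed in sex-linked RNA.

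None of the 49 tested members passed the test in any of the 5 comparisons between conditions, and the immunoproteasome subunits were already abundant in DCs cultured alone. A member was called at a Benjamini-Hochberg adjusted p under 0.05 in edgeR's quasi-likelihood test, adjusted over all 14413 genes tested. The count of called members was 0 in AlloTem against SynTem (0.167% of all genes were called), 0 in AlloTem against DC only (1.76%) and 0 in SynTem against DC only (0.0902%). It was 0 in LPS against DC only (0.0%) and 0 in AlloTem against LPS (0.451%). The test of any difference among the 4 groups called 0 members as well (1.26% of all genes), and the smallest p of a member was that of Psma6 (edgeR adjusted p = 0.275). At an unadjusted p under 0.05 stood 6 members in AlloTem against SynTem (9.58% of all genes), 2 in AlloTem against DC only (12.7%) and 4 in SynTem against DC only (8.24%). In LPS against DC only 0 members stood there (3.68%), and in AlloTem against LPS 0 (6.5%). DESeq2 and limma voom called 0 members too, with 4, 2, 1, 0 and 0 members at an unadjusted p under 0.05 by DESeq2 and 5, 1, 3, 0 and 0 by voom, comparisons in the same order. Over all genes DESeq2 called 318, 676, 254, 10 and 288, and voom 26, 187, 2, 0 and 58. The shares of all genes at an unadjusted p under 0.05 by these tools are not given here. Over 24 settings, among them other scalings, filters and left-out libraries, the smallest adjusted p of a member was 0.11, and that of an inducible subunit 0.27. The median SD of log2 CPM over the 12 libraries was 0.137 for tested members and 0.268 for all genes tested.

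**Figure D1:**
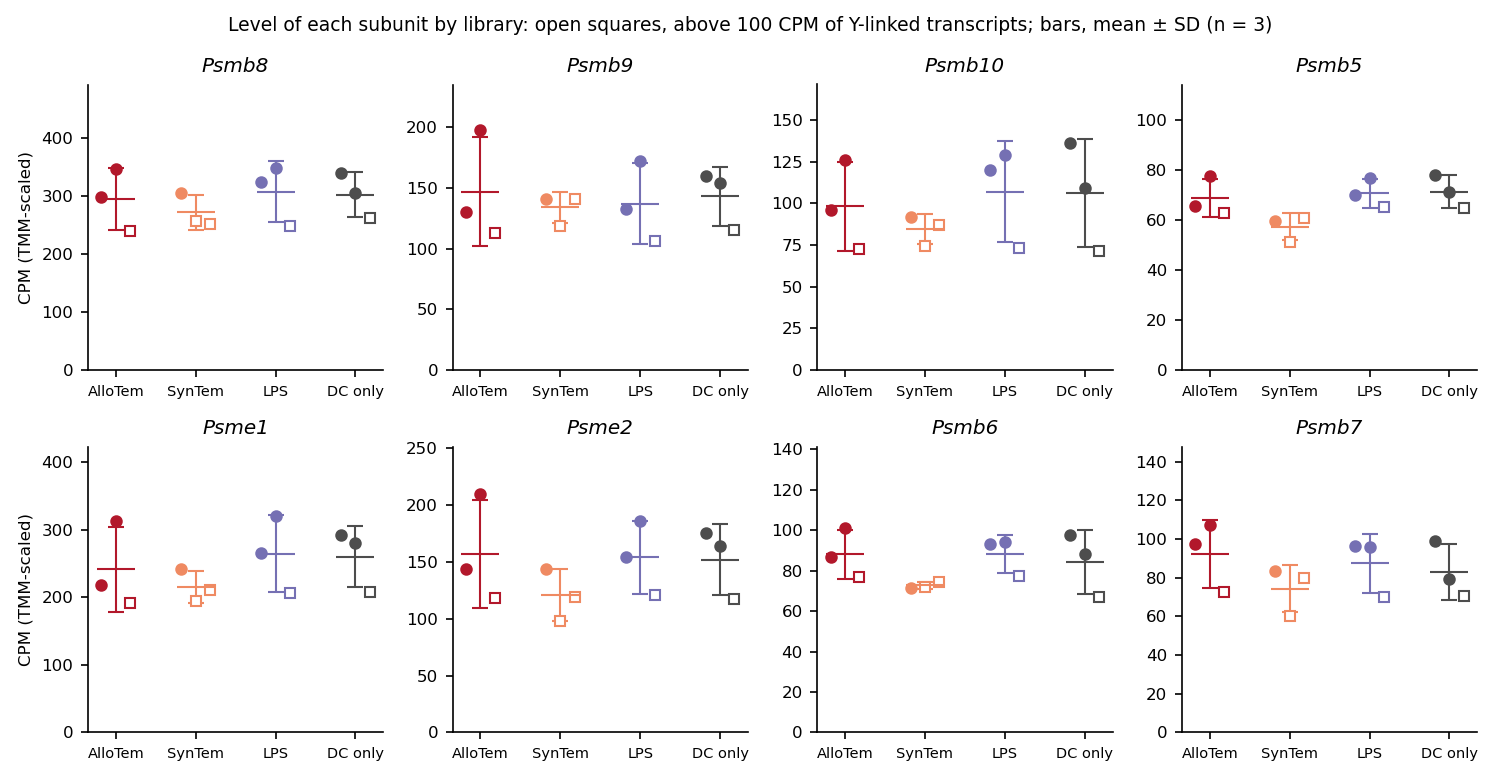
Level of 5 inducible subunits and 3 constitutive catalytic subunits in CPM (y axis, from 0) in AlloTem, SynTem, LPS and DC only; each point is 1 library, open squares are libraries above 100 CPM of Y-linked transcripts, and bars are the mean ± SD (n = 3). The groups overlap for each inducible subunit, and for Psmb8 the 5 squares lie at 240 to 263 CPM, below the 7 circles at 298 to 349 CPM.

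The inducible catalytic subunits were expressed at overlapping levels in all 4 conditions. Psmb8, which replaces Psmb5 and is also called LMP7, stood at 298, 347 and 240 CPM in AlloTem, 306, 258 and 252 CPM in SynTem, 325, 349 and 249 CPM in LPS and 340, 306 and 263 CPM in DC only. The groups overlapped, and the lowest library of each group carried batch number 3. The AlloTem to DC only fold of Psmb8 was 0.97, with a 95% interval of 0.76 to 1.25 (edgeR adjusted p = 0.959), and the LPS to DC only fold was 1.02 (0.79 to 1.31, adjusted p = 0.999). Psmb9, which replaces Psmb6 and is also called LMP2, stood at 130, 198 and 113 CPM in AlloTem, 141, 119 and 141 CPM in SynTem, 133, 172 and 106 CPM in LPS and 160, 154 and 115 CPM in DC only. AlloTem 2 was the highest library, LPS 3 the lowest, and the groups overlapped. Psmb10, which replaces Psmb7, stood at 96.0, 126 and 72.7 CPM in AlloTem, 91.7, 74.5 and 87.2 CPM in SynTem, 120, 129 and 73.1 CPM in LPS and 136, 109 and 71.6 CPM in DC only. DC only held both the highest and the lowest library of Psmb10.

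Fitted differences of these 3 subunits were smaller than 2 standard errors in the 5 comparisons. In AlloTem against SynTem the log2 fold changes were 0.12 ± 0.17 for Psmb8, 0.13 ± 0.23 for Psmb9 and 0.22 ± 0.28 for Psmb10 (SE, n = 3 libraries each; edgeR adjusted p = 0.875, 0.903 and 0.856). Batch 2 held the largest ratio of each, at log2 0.43, 0.73 and 0.75, while batch 3 gave -0.07, -0.32 and -0.26. Batch 2 of SynTem is a library with Y-linked transcripts and batch 2 of AlloTem is not. With Y-linked transcripts as a covariate, added after the data were seen, the AlloTem to SynTem differences were -0.03 ± 0.08, -0.08 ± 0.13 and -0.06 ± 0.10 (SE) in the same gene order. In SynTem against DC only the log2 fold changes were -0.16 ± 0.17, -0.10 ± 0.23 and -0.32 ± 0.28 for Psmb8, Psmb9 and Psmb10 (edgeR adjusted p = 0.858, 0.949 and 0.816). The interval for Psmb10 there ran from a fold of 0.52 to 1.22, so changes within that range were not excluded by these libraries. Counting reads without strand could add to Psmb8 and Psmb9: 14.73% of the exon bases of Psmb8 overlap the antisense gene Gm20496 and 5.79% of those of Psmb9 overlap Tap1 on the other strand, and the strand setting is not given in the sources used here.

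PA28, the activator ring that opens the core and favours release of peptides, also overlapped between conditions. Psme1, its alpha subunit, stood at 218, 312 and 191 CPM in AlloTem, 241, 194 and 210 CPM in SynTem, 266, 320 and 206 CPM in LPS and 292, 280 and 208 CPM in DC only. Psme2, its beta subunit, stood at 144, 210 and 118 CPM in AlloTem, 144, 98.4 and 119 CPM in SynTem, 154, 186 and 121 CPM in LPS and 175, 164 and 117 CPM in DC only. For both genes the groups overlapped, and SynTem held no library above 241 CPM of Psme1 or above 144 CPM of Psme2. Psme2 had the largest AlloTem to SynTem fold of the 5 inducible subunits, 1.30 (95% interval 0.90 to 1.90, edgeR adjusted p = 0.658). That difference came from 1 batch, with log2 ratios of -0.00, 1.09 and -0.02 in batches 1 to 3, and without AlloTem 2 the fitted log2 difference was 0.11. Without that library the AlloTem to SynTem log2 differences of Psmb9 and Psme1 turned to -0.15 and -0.08, also not called. The LPS to DC only fold was 1.01 for Psme1 (0.73 to 1.40) and 1.01 for Psme2 (0.70 to 1.47), with an edgeR adjusted p of 0.999 for each. Psme1 and Psme2 lie close together on mouse chromosome 14, as Psmb8 and Psmb9 do in the MHC region of chromosome 17.

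The constitutive catalytic subunits spread over similar ranges, with a highest library 1.53 (Psmb5), 1.51 (Psmb6) and 1.77 (Psmb7) times the lowest, against 1.46 for Psmb8, 1.86 for Psmb9 and 1.90 for Psmb10. Psmb5 (chymotrypsin-like site) stood at 65.9, 77.7 and 63.1 CPM in AlloTem, 59.8, 51.2 and 61.1 CPM in SynTem, 70.2, 77.1 and 65.4 CPM in LPS and 78.2, 71.4 and 65.0 CPM in DC only. All SynTem libraries lay below all libraries of AlloTem and of DC only. Its fold was 1.20 in AlloTem against SynTem (95% interval 1.01 to 1.43, edgeR adjusted p = 0.498) and 0.80 in SynTem against DC only (0.67 to 0.96, adjusted p = 0.439). Psmb6 (caspase-like site) stood at 86.6, 101 and 77.0 CPM in AlloTem, 71.6, 71.9 and 74.6 CPM in SynTem, 93.3, 94.3 and 77.4 CPM in LPS and 97.8, 88.0 and 66.8 CPM in DC only. SynTem lay below AlloTem with no overlap and overlapped DC only. Psmb7 (trypsin-like site) stood at 97.2, 107 and 72.8 CPM in AlloTem, 83.2, 60.3 and 79.6 CPM in SynTem, 96.5, 95.8 and 69.9 CPM in LPS and 98.8, 79.3 and 70.3 CPM in DC only. All 4 groups overlapped for Psmb7. The AlloTem to SynTem log2 differences of Psmb6 and Psmb7 were 0.28 ± 0.15 and 0.31 ± 0.19 (SE, edgeR adjusted p = 0.579 and 0.644), and neither was called.

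**Figure D2:**
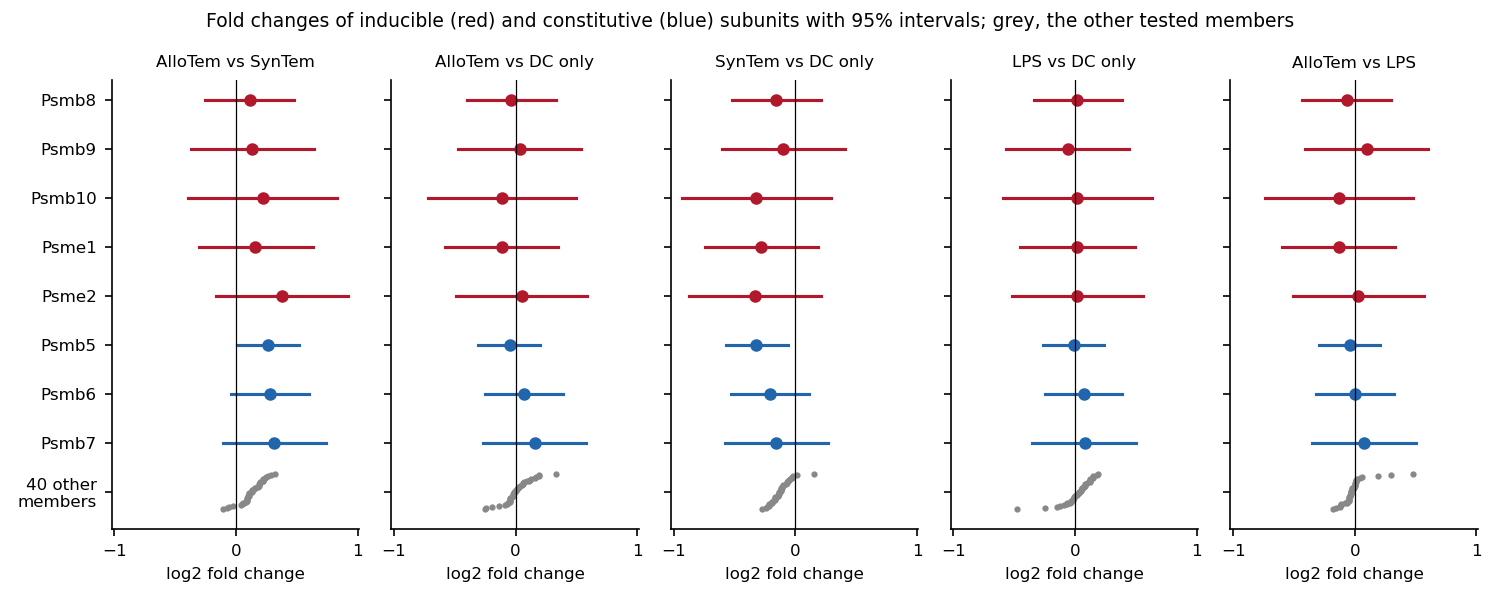
Log2 fold change (x axis) of the 5 inducible (red) and 3 constitutive catalytic subunits (blue) in each of 5 comparisons, with 95% intervals; grey points are 40 other tested members, Psma8 is not drawn. All intervals of inducible subunits cross 0, and those of Psmb5 miss it in AlloTem vs SynTem and SynTem vs DC only, where the adjusted p was 0.498 and 0.439.

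Ratios of each inducible subunit to the one it replaces do not depend on how a library is scaled. The log2 ratio of Psmb8 to Psmb5 averaged 2.09 ± 0.14 in AlloTem, 2.24 ± 0.17 in SynTem, 2.11 ± 0.15 in LPS and 2.08 ± 0.05 in DC only (SD, n = 3 each). Over the 12 libraries Psmb8 had 3.8 to 5.11 times the CPM of Psmb5, and after division by exon length (GENCODE M21, all exons of a gene) a mean of 1.16 times. The log2 ratio of Psmb9 to Psmb6 averaged 0.70 ± 0.23 in AlloTem, 0.88 ± 0.13 in SynTem, 0.61 ± 0.22 in LPS and 0.77 ± 0.05 in DC only, and per length the mean ratio was 0.854. The log2 ratio of Psmb10 to Psmb7 averaged 0.07 ± 0.14 in AlloTem, 0.19 ± 0.10 in SynTem, 0.27 ± 0.19 in LPS and 0.32 ± 0.25 in DC only, and per length the mean ratio was 2.33. No ratio differed among the 4 groups beyond the spread of its libraries: exact permutation tests over 369600 assignments of libraries to groups gave p = 0.461, 0.367 and 0.404, each 0.461 after adjustment over the 3 ratios. With assignments kept within batch numbers (13824 of them) the exact permutation p was 0.0642, 0.384 and 0.0816.

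**Figure D3:**
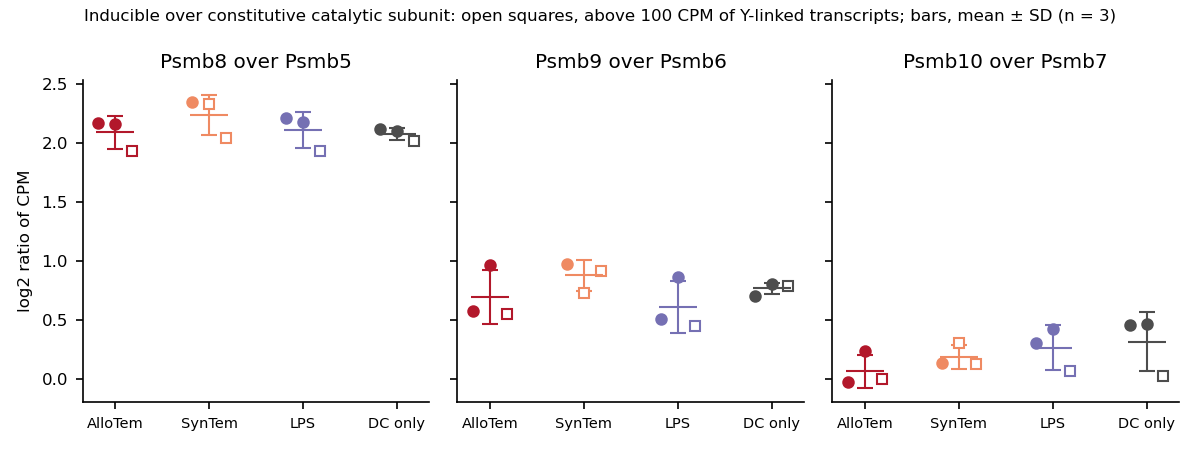
Log2 ratio of CPM (y axis) of Psmb8 over Psmb5, Psmb9 over Psmb6 and Psmb10 over Psmb7 in AlloTem, SynTem, LPS and DC only; each point is 1 library, open squares are libraries above 100 CPM of Y-linked transcripts, and bars are the mean ± SD (n = 3). The 4 groups overlap in each panel, with exact permutation p of 0.461, 0.367 and 0.404.

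Set against the constitutive subunits as a whole, the inducible ones gave small differences that moved with single libraries. The median log2 fold change of the 5 inducible subunits less that of the 31 constitutive 20S and 19S subunits was 0.01 in AlloTem against SynTem, with -0.09, 0.36 and -0.17 in batches 1 to 3. It was -0.04 in AlloTem against DC only (batches -0.22, 0.1 and -0.04), -0.14 in SynTem against DC only (-0.16, -0.3 and 0.03) and -0.03 in LPS against DC only (-0.22, 0.13 and -0.07). In AlloTem against LPS it was -0.03 (-0.01, -0.04 and -0.03). The sign changed between batches in 4 of these 5 comparisons. Without 1 library the value in SynTem against DC only was -0.22 (without DC only 3), -0.20 (without SynTem 1) and -0.01 (without DC only 1). In AlloTem against DC only it was -0.18 without AlloTem 2 and 0.055 without DC only 1. The inducible subunits varied more between libraries: their median SD of log2 CPM was 0.271, against 0.133 for the constitutive ones, and their median SD within a group was 0.31, against 0.118. The range of the 4 group means was 0.278 on the log2 scale for the median inducible subunit, against 0.221 for the median constitutive one.

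Fitted levels of the constitutive core and cap, like those of the inducible subunits, lay slightly lower in SynTem than in AlloTem or DC only. In AlloTem against SynTem 31 of 31 constitutive subunits had a higher fitted level in AlloTem (48.49% of all genes tested did), with a median log2 fold change of 0.15 against -0.01 for all genes and a range of 0.04 to 0.31. In SynTem against DC only 30 of 31 had a lower fitted level in SynTem, with a median of -0.13 against 0.00 for all genes. The inducible subunits went the same way, 5 of 5 higher in AlloTem than in SynTem (median 0.16). In SynTem against DC only 5 of 5 were lower (median -0.28). Over all members tested the counts were 45 of 49 and 47 of 49. None of these differences was called, so the counts describe fitted values and not changed genes. These 2 comparisons share the SynTem libraries. SynTem held 2 of the 5 libraries with Y-linked transcripts (SynTem 2 and 3), against 1 each in AlloTem and DC only. In those 5 libraries 30 of 31 constitutive subunits had a lower fitted level than in the 7 others, with a median of -0.14. With Y-linked transcripts as a covariate 29 of 31 stood higher in AlloTem than in SynTem, with a median of 0.07, and 26 of 31 lower in SynTem than in DC only, with a median of -0.04. Of the inducible subunits 1 of 5 then stood higher in AlloTem than in SynTem (median -0.03), and 2 of 5 lower in SynTem than in DC only (median 0.03). Without SynTem 2 the medians of the constitutive subunits were 0.12 and -0.09. Summed T cell markers stood at 349 to 806 CPM in SynTem, against 190 to 365 CPM in AlloTem and 81.5 to 127 CPM in DC only, and their part in these differences was not tested. In AlloTem against DC only the constitutive subunits were divided, 17 higher and 14 lower, with a median of 0.00. In LPS against DC only 22 were higher and 9 lower (median 0.05), and in AlloTem against LPS 8 were higher and 23 lower (median -0.03). Within batch 3 the median of the constitutive subunits in AlloTem against SynTem was 0.04, against 0.05 in batch 1 and 0.37 in batch 2. In SynTem against DC only their median was -0.12, -0.22 and 0.0 in batches 1 to 3. The inducible subunits had batch medians of -0.04, 0.73 and -0.13 in AlloTem against SynTem, and of -0.28, -0.53 and 0.03 in SynTem against DC only.

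Among the alpha ring subunits, which form the gate of the core, Psma6 had the smallest p in AlloTem against SynTem. Psma6 stood at 82.8, 99.4 and 85.5 CPM in AlloTem, 73.3, 71.4 and 73.8 CPM in SynTem, 89.5, 93.8 and 83.1 CPM in LPS and 80.4, 75.3 and 78.8 CPM in DC only. AlloTem and LPS lay above SynTem and above DC only with no overlap. The fold was 1.22 in AlloTem against SynTem (95% interval 1.07 to 1.40, edgeR adjusted p = 0.247) and 1.14 in AlloTem against DC only (1.00 to 1.30, adjusted p = 0.388). Psmb4, a structural beta ring subunit, stood at 156, 165 and 133 CPM in AlloTem, 131, 127 and 126 CPM in SynTem, 164, 153 and 139 CPM in LPS and 160, 147 and 140 CPM in DC only. SynTem was again the lowest group with no overlap, and the fold in AlloTem against SynTem was 1.18 (edgeR adjusted p = 0.471). Of the cap, Psmd11, a non-ATPase of the lid, had a fold of 1.19 (adjusted p = 0.372) and Psmc4, an ATPase of the base, one of 1.16 (adjusted p = 0.509). Psmb3, a structural beta ring subunit, had a fold of 1.15 (adjusted p = 0.499). With Psma6, Psmb4 and Psmb5 these made up the 6 members at an unadjusted p under 0.05, and except for Psma6 and Psmb5 they were named after their values were seen. In SynTem against DC only the 4 such members were Psmb5, Psmb4, Psmc4 and Psmd12 (a lid subunit), all lower in SynTem, with folds of 0.80, 0.86, 0.86 and 0.85 (edgeR adjusted p = 0.439, 0.606, 0.570 and 0.562).

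Groups that did not overlap were counted as a description. AlloTem lay above SynTem with no overlap for 11 of 49 members (7.09% of all genes) and below it for 0 (5.94%). SynTem lay below DC only with no overlap for 11 members (6.83%) and above it for 0 (7.42%). Of the inducible subunits 0 were among these in either comparison. AlloTem lay above DC only for 2 members (9.35%) and below it for 1 (7.82%), and LPS lay above DC only for 3 (5.36%) and below it for 3 (4.51%). AlloTem and LPS overlapped for all 49 members, while 5.52% of all genes were higher and 4.54% lower in AlloTem with no overlap.

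Assembly chaperones, which build the core and cap and are not in the finished particle, were less abundant and showed no common direction in AlloTem against SynTem (4 of 7 higher, median log2 0.09). In SynTem against DC only 7 of 7 had a lower fitted level in SynTem (median log2 -0.13), and 0 were called. Psmd5, a chaperone of the cap base, stood at 36.9, 36.1 and 40.9 CPM in AlloTem, 36.8, 41.9 and 40.8 CPM in SynTem, 41.4, 42.6 and 39.3 CPM in LPS and 44.4, 45.4 and 44.4 CPM in DC only. DC only was the highest group with no overlap. The fold was 0.85 in AlloTem against DC only (95% interval 0.74 to 0.97, edgeR adjusted p = 0.252) and 0.92 in LPS against DC only (adjusted p = 0.999). Psmg2, a chaperone that acts with Psmg1 in alpha ring assembly, stood at 12.2, 11.7 and 15.2 CPM in AlloTem, 13.0, 15.4 and 13.6 CPM in SynTem, 11.2, 13.9 and 14.0 CPM in LPS and 15.9, 14.9 and 15.5 CPM in DC only. LPS lay below DC only with no overlap, at a fold of 0.84 (0.68 to 1.05, adjusted p = 0.999), and AlloTem overlapped DC only, also at 0.84 (adjusted p = 0.550). Psmg1 had a fold of 1.24 in AlloTem against SynTem (0.94 to 1.64, adjusted p = 0.616).

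The other activators and the inhibitor were abundant and not called in any comparison. Psme3, the nuclear PA28 gamma activator, ran from 142 to 191 CPM and had a fold of 1.14 in AlloTem against SynTem (edgeR adjusted p = 0.562). Psme4 (PA200, another activator) ran from 102 to 144 CPM, and Psmf1 (PI31, described as an inhibitor of the core) from 32.8 to 38.9 CPM, the narrowest range of these 3. Tissue-specific core subunits were near 0: Psmb11, the thymus subunit, had at most 2 counts in a library and was not tested, and Psma8, the testis alpha subunit, ran from 0.314 to 1.56 CPM. Psma8 had the widest intervals, with a fold of 0.62 (0.29 to 1.32) in LPS against DC only and 1.65 (0.77 to 3.51) in AlloTem against LPS, and neither was called. Psme2b is a close copy of Psme2, so reads may be shared between them and its level is uncertain. It stood at 14.9, 24.2 and 13.0 CPM in AlloTem, 14.9, 15.2 and 19.2 CPM in SynTem, 13.4, 16.4 and 12.5 CPM in LPS and 21.4, 20.3 and 17.6 CPM in DC only. LPS lay below DC only with no overlap, at a fold of 0.72 (0.51 to 1.01, adjusted p = 0.999). Psmc3ip matched by symbol only: it is a partner of meiotic recombinases and no subunit, at 4.83 to 11.2 CPM, with a fold of 1.39 (0.86 to 2.26) in AlloTem against LPS.

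Levels per exon length were highest for Psme1, Psmb8 and Psme2, while Psmb10 ranked 9 and Psmb9 ranked 21 of 49 tested members. Per kilobase of exon, Psme1 had a mean of 111 CPM over the 12 libraries, Psmb8 87.0 CPM, Psme2 82.7 CPM, Psmb5 74.7 CPM, Psmb4 74.4 CPM and Psmb2 73.7 CPM. Psmb10 had 58.0 CPM per kilobase, Psmb6 44.5 CPM, Psmb9 38.3 CPM and Psmb7 24.6 CPM. Chaperones had 3.19 CPM per kilobase (Psmd9) to 35.7 CPM (Psmg4). Exon length here sums all annotated exons, so a gene with long rare transcripts is understated.

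**Figure D4:**
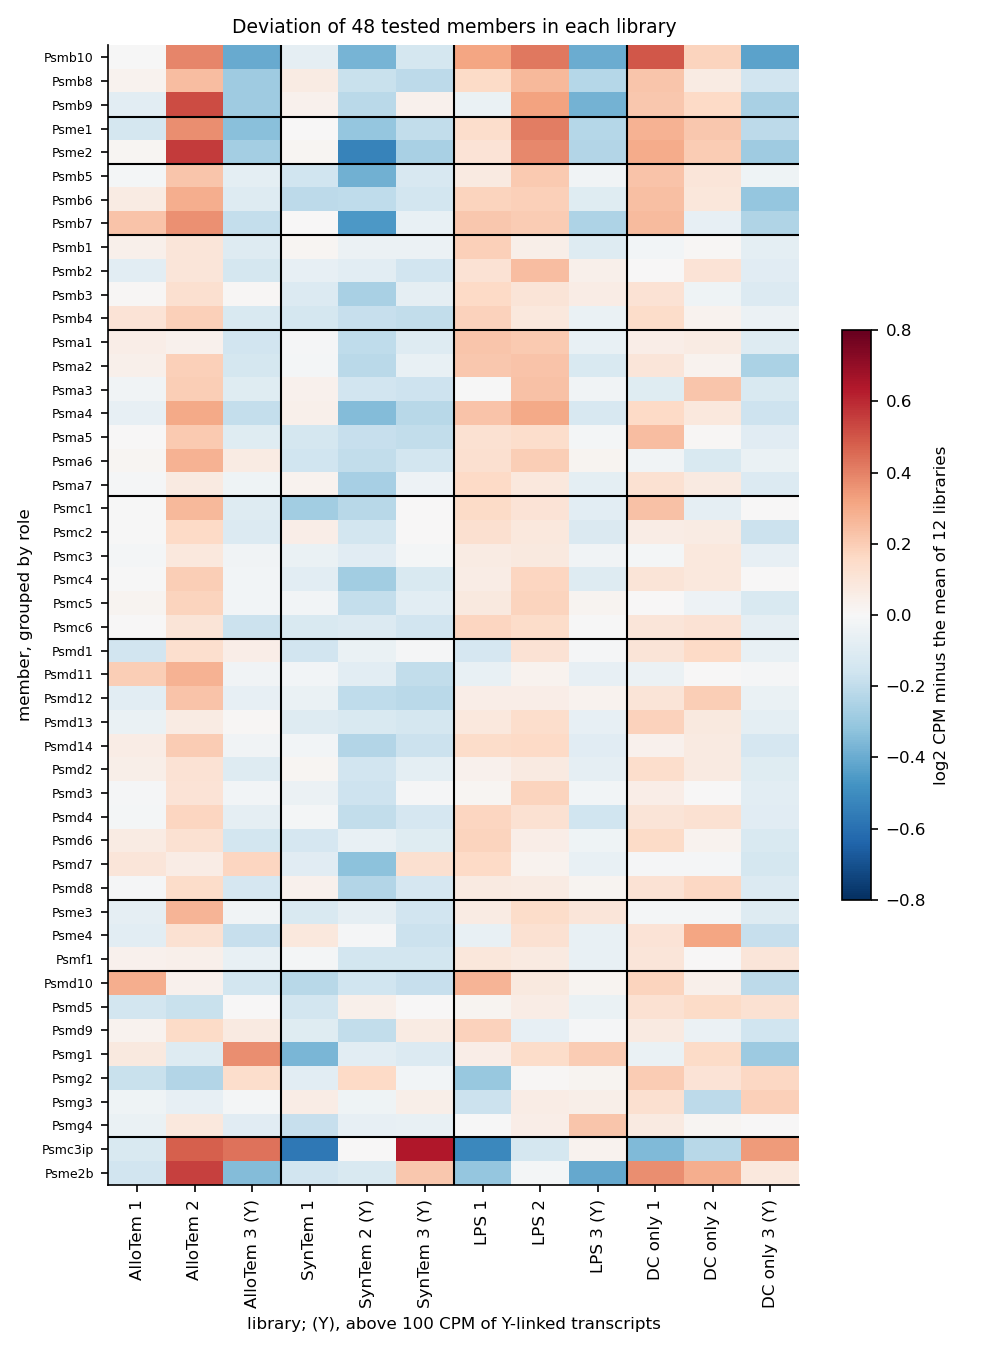
Log2 CPM minus the mean of the 12 libraries (colour, red above and blue below) for 48 tested members in rows by role, from the inducible catalytic subunits at the top to other matching genes at the bottom, and libraries in columns by group; (Y) marks libraries above 100 CPM of Y-linked transcripts. In the top 5 rows, the inducible subunits, the columns marked (Y) are blue except for Psmb9 in SynTem 3.

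Neither condition nor batch number called a member over all 12 libraries. With the batch number as a term, 0 members were called (0.0% of all genes), although 6 members, 3 of them inducible, stood at an unadjusted p under 0.05 along with 3949 of 14413 genes. Leaving out any 1 library other than SynTem 2 also gave 0. Leaving out SynTem 2, the library of batch 2 with Y-linked transcripts, the same term called 11 of 49 members, 22.4%, against 17.7% of all genes. These 11 included all 5 inducible subunits and 4 of 31 constitutive ones (12.9%). Batch 3 then lay below batch 1 by log2 0.34 for Psmb8, 0.25 for Psmb9, 0.53 for Psmb10, 0.31 for Psme1 and 0.38 for Psme2 (edgeR adjusted p = 0.0129, 0.0205, 0.0318, 0.0113 and 0.00928). In AlloTem, LPS and DC only alike, the batch 3 library was the lowest of its group for 5 of 5 inducible subunits, 23 of 31 constitutive ones and 31 of 49 members. The share of all genes tested with that order was not computed, so these counts are not a result about the members.

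Setting the 5 libraries with Y-linked transcripts against the 7 others within group, a comparison added after the data were seen, 16 of 49 members were called, 32.7%, against 24.1% of all genes. All 16 were lower in the 5 libraries. The inducible subunits were all among them: the log2 difference was -0.36 for Psmb8, -0.41 for Psmb9, -0.59 for Psmb10, -0.42 for Psme1 and -0.51 for Psme2 (edgeR adjusted p = 0.00259, 0.0367, 0.00574, 0.00978 and 0.00609). Psmb8 stood at 240 to 263 CPM in the 5 libraries and 298 to 349 CPM in the 7 others, and Psme2 at 98.4 to 121 CPM and 144 to 210 CPM in the same order. Of the inducible subunits 4 were apart between these sets of libraries, Psmb9 being the exception (106 to 141 CPM in the 5, 130 to 198 CPM in the 7). So were 8 of 31 constitutive subunits, which made 12 of 49 members. The share of all genes tested that were apart in this way was not computed, so these counts of members apart are not a result about the members. Among constitutive subunits 11 of 31 (35.5%) were called, with Psmb7 at log2 -0.39 (adjusted p = 0.0104), Psmb6 at -0.25 (0.0418) and Psmb5 at -0.16 (0.110). The median was -0.42 for the inducible and -0.14 for the constitutive subunits. Of the chaperones 5 of 7 had a higher fitted level in the 5 libraries and 0 were called. The same 5 libraries held less summed RNA of 7 macrophage markers (13.3 to 20.9 CPM, against 28.4 to 32.0 CPM in the 7 others) and of 6 natural killer cell markers (110 to 206 CPM, against 268 to 777 CPM), with none of these genes at 0 in all libraries. These 5 libraries were all those of batch number 3 together with SynTem 2 of batch 2. This comparison and one of batch 3 against the other batches therefore differ only in SynTem 2, and the 2 can hardly be told apart. What else the 5 libraries share is not given in the labels, and the part of these cells or of Y-linked transcripts in the difference was not tested.

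**Figure D5:**
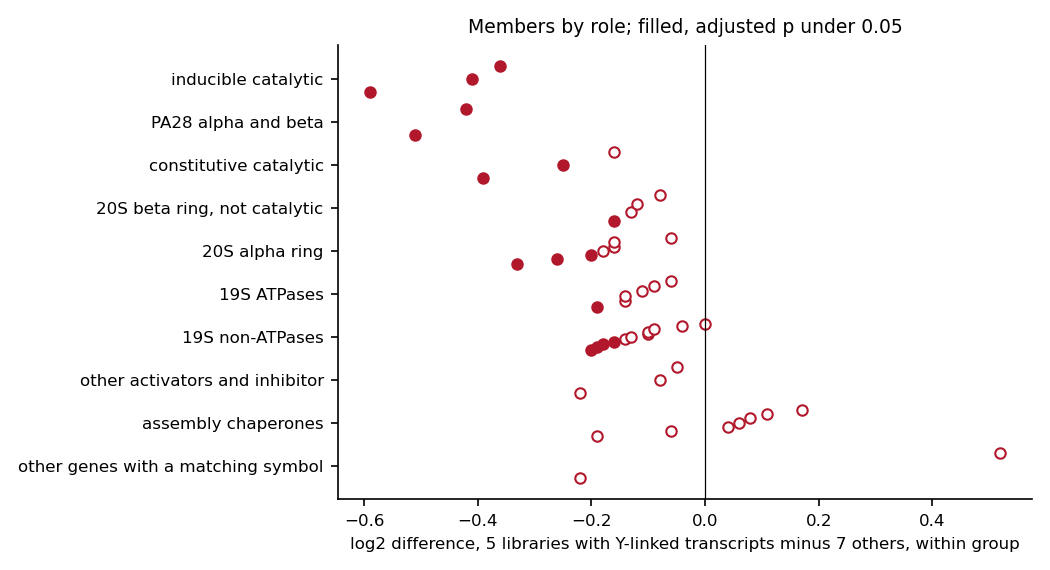
Log2 difference (x axis) between the 5 libraries with more than 100 CPM of Y-linked transcripts and the 7 others, fitted within group, for 48 members in rows by role; filled points have an edgeR adjusted p under 0.05. All 5 inducible points are filled and lie between -0.36 and -0.59, and no chaperone point is filled.

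Genes that work with the proteasome but fall outside the rule were not called by condition either. Of a list of 20 assembly and ubiquitin genes 19 were matched, and 0 were called in any of the 5 comparisons. Zfand5, which activates the proteasome under stress, was the member of that list with the largest difference in AlloTem against SynTem (log2 0.63 ± 0.29 SE) and in AlloTem against DC only (0.64 ± 0.29), with edgeR adjusted p = 0.528 and 0.394. Its log2 ratios in batches 1 to 3 were 0.26, 1.46 and 0.13 in AlloTem against SynTem, and 0.54, 0.87 and 0.39 in AlloTem against DC only. Between the 5 libraries with Y-linked transcripts and the 7 others the log2 difference of Zfand5 was -0.65 (edgeR adjusted p = 0.000775). Of 12 genes that load peptides on MHC class I 0 were called in any comparison, among them Tap1, Tapbp and B2m. In the 5 libraries with Y-linked transcripts against the 7 others, 9 of these 12 were called, all lower, with a median of -0.50 on the log2 scale. Of the 19 assembly and ubiquitin genes 7 were called there (6 lower, 1 higher), and of all genes tested 24.1%.

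Interferon signalling genes gave the exception. Socs1, a feedback inhibitor of cytokine receptors, stood at 91.0, 242 and 93.1 CPM in AlloTem, 32.9, 23.1 and 98.8 CPM in SynTem, 9.68, 7.78 and 3.75 CPM in LPS and 12.5, 9.60 and 2.16 CPM in DC only. Both T cell groups lay above LPS and DC only, and Socs1 rose in AlloTem against DC only by log2 4.14 ± 0.79 (SE, edgeR adjusted p = 0.0293; 2.81, 4.59 and 5.14 in batches 1 to 3), the 1 called gene of 10 in that list. Irf1, a transcription factor that is known to drive immunoproteasome genes, stood at 732, 1233 and 507 CPM in AlloTem, 843, 358 and 788 CPM in SynTem, 326, 190 and 207 CPM in LPS and 339, 310 and 124 CPM in DC only. AlloTem and SynTem lay above DC only with no overlap, at log2 1.68 ± 0.47 and 1.36 ± 0.47 (adjusted p = 0.135 and 0.407).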

How the data were processed

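Per the labels' protocols, DNase-treated RNA went into TruSeq libraries, which were read from 1 end on a NextSeq. The authors deposited raw read counts per Ensembl gene, not normalized, and a table of batch numbers. Per the submitters' processing notes the build was mm10. Aligner, counter, strand and annotation release were not given in the sources used here. Gene symbols were matched to GENCODE M21 for 52080 identifiers, and the other 4929 held 0.754% of counts. Pseudogene or non-coding rows with a matching symbol (4, at most 2 counts in a library) were left out.

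Genes were filtered with filterByExpr (minimum count 10, minimum total 15), scaled by TMM and fitted in edgeR 4.0.16 under R 4.3.3 (robust quasi-likelihood, a mean for each group, 12 libraries). P-values were adjusted over all 14413 genes. CPM levels use TMM-scaled totals, and ratios within a batch add 0.5 CPM. SDs are over 3 libraries. Exact permutation tests were two-sided in effect, being on the between-group sum of squares, and pairwise tests of 3 against 3 could not go below p = 0.1, so none was run. The scripts were tested on simulated counts. Replicates of a group differed beyond sampling noise (chi-square per degree of freedom 5.789 to 78.75). The 95% intervals of folds come from the edgeR standard errors.

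Libraries with the same number share a batch number in the deposited table. The reported fits had no block for it, and the block was an alternative. Deviations from group means had a median correlation of 0.247 over 18 same-number pairs (-0.249 to 0.632, 12 over 0.1) and -0.201 over 36 other pairs.

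The members, gene lists and tests were chosen with earlier results of these data known. Named genes were 8 subunits in every comparison, called members, the 3 other members with the largest fold change, Irf1 and leading genes of the outside lists. Some planned results are not reported here. Alternatives were RLE and upper-quartile scaling, DESeq2 1.42.0, limma 3.58.1 voom, other filters (none, or a mean of at least 5 CPM), only the groups compared, the replicate block and left-out libraries. Added after the data were seen were Y-linked transcripts as a covariate and as a term in place of batch.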

Additional observations from a re-analysis of the deposited data

How the results depend on the processing

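In all 5 comparisons and in the test among 4 groups, the count of called members was 0 under every alternative run. With the replicate block the members at an unadjusted p under 0.05 numbered 10 in AlloTem against SynTem and 1 in AlloTem against DC only. They numbered 7 in SynTem against DC only, 1 in LPS against DC only and 3 in AlloTem against LPS. The block changed no call of a member. Over all genes it called 78, 420, 21, 0 and 136 in the same order, against 24, 253, 13, 0 and 65 without it. The share of all genes at that unadjusted p with the block is not given here, so these counts are not a result about the members. The count called for the batch term was 0 with all libraries, 0 to 11 with 1 library left out (11 without SynTem 2), 9 without DC only 2 and SynTem 2 (20.9% of all genes) and 16 with Y-linked transcripts in place of batch. The inducible less constitutive median was 0.067 in SynTem against DC only with the Y-linked covariate, against -0.14, and -0.00 in AlloTem against LPS, against -0.03. Leaving out 1 library gave -0.141 to 0.046 in AlloTem against LPS, -0.22 to -0.01 in SynTem against DC only, -0.18 to 0.06 in AlloTem against DC only, -0.15 to 0.06 in LPS against DC only and -0.09 to 0.10 in AlloTem against SynTem. The cause of these moves was not tested, beyond fewer libraries in the fits that leave one out. With 3 libraries per group, intervals were as wide as a fold of 0.52 to 1.22 for Psmb10 in SynTem against DC only, and changes within them were not excluded.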

Other observations

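The class I heavy and light chains, the cargo carriers for peptides cut by the immunoproteasome, differed between the same sets of libraries as the inducible subunits. B2m, the light chain, stood at 794 CPM in AlloTem 3, 880 and 1109 CPM in SynTem 2 and 3, 803 CPM in LPS 3 and 765 CPM in DC only 3, the 5 libraries with Y-linked transcripts. It stood at 1568 to 2100 CPM in the 7 others, with no overlap, a log2 difference of -1.14 within group (edgeR adjusted p = 3.7e-05). H2-K1, a heavy chain, was 847 to 1246 CPM in the 5 libraries and 1561 to 2298 CPM in the 7 others (log2 -1.08, adjusted p = 9.7e-05). Nlrc5, the transactivator of class I genes, differed by log2 -1.36 (adjusted p = 0.00578), Tap1 by -0.76 (0.00865) and Tapbp by -0.65 (0.00248). Between conditions none of these 5 genes was called. The comparison was added after the data were seen.

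Ddi2, the protease that releases the proteasome gene activator Nfe2l1 from the endoplasmic reticulum, was highest in SynTem. It stood at 209, 190 and 236 CPM in AlloTem, 255, 244 and 278 CPM in SynTem, 175, 181 and 197 CPM in LPS and 209, 224 and 234 CPM in DC only. SynTem was the highest group and LPS the lowest, each with no overlap with DC only. The log2 difference was 0.22 ± 0.10 in SynTem against DC only and -0.27 ± 0.10 in LPS against DC only (SE, edgeR adjusted p = 0.592 and 0.999), and neither was called. Pomp, the chaperone that completes the 20S core, was 108, 123 and 111 CPM in AlloTem and 104, 101 and 96.5 CPM in SynTem, with no overlap (log2 0.18 ± 0.08, adjusted p = 0.483). Pomp was picked for its values.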
